A study of Mus musculus with 74 samples.

Results

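The genes of the insulin-like growth factor (IGF) system were examined in mouse mammary tumors and in the lung metastases they gave rise to. The 10 genes were chosen by symbol: the ligands Igf1 and Igf2, the receptors Igf1r and Igf2r, and the binding proteins Igfbp2, Igfbp3, Igfbp4, Igfbp5, Igfbp6 and Igfbp7. They are 10 of the 22365 gene symbols listed in any table of the series. RNA-seq was run on 74 samples of primary tumor (PT) and lung metastasis (Lung met), with 6 samples per tissue and model and 7 per tissue in the C3Tag model. The question addressed by the comparison is which genes differ in level between the metastasis and the tumor of origin, and whether that depends on the oncogene or on the inherited background.

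All groups were female mice that carried 1 oncogenic transgene. Her2 mice carried MMTV-Her2 (neu) and Myc mice carried MMTV-Myc, both on the FVB background and both under the mouse mammary tumor virus promoter, which is active in mammary epithelium. C3Tag mice carried the SV40 large T antigen under the C3(1) promoter, also on FVB. The PyMT-F1 mice were offspring of FVB males with MMTV-PyMT, the polyoma middle T antigen, and wild-type females of another strain, here AKR, BALB or SEAGN. In the Her2, C3Tag and Myc models the PTs were removed by surgery and the animal was kept on for metastases to grow, whereas PyMT-F1 tissues were taken at the endpoint. All PTs of an animal were pooled in 1 tube. No age was given in the labels.

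Each deposited table holds 1 mean per tissue and gene, so the spread between animals is unknown, and every ratio below is a quotient of 2 means without a test. Means with values were analysed for 5 of the 6 tables, and levels in the Myc model were not analysed here. The table deposited under AKR is named by that label only, because its ratios matched, for most genes that could be compared, a supplementary list for the C57BL/6J cross, and its strain was not settled. Of 275 pathway genes that could be set beside that list, 271 had the same ratio within 0.006. For the BALB, SEAGN, BL10, MOLF and CAST crosses, 1 to 9 genes did. The AKR cross was not among those compared, and whether the means come from the AKR samples was not settled. Counts over several tables are also given without the table deposited under AKR. Differences are given as the ratio of the Lung met mean to the PT mean, or as its log2, where 1 stands for a 2-fold higher and -1 for a 2-fold lower Lung met mean. Levels are means of normalized counts on a scale of their own in each table, and were not compared between models.

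IGF1 and IGF2 are small secreted hormones that drive growth and survival through the tyrosine kinase receptor IGF1R. IGF2R, the mannose 6-phosphate receptor, binds IGF2, carries it to the lysosome and does not signal as IGF1R does. The secreted binding proteins hold the ligands in the circulation and in the matrix, prolong their life and mostly keep them from the receptor until a protease releases them. IGFBP7 binds IGFs with low affinity and is best known as a product of vessels and stroma. In the mammary gland IGF1 made in the stroma supports ductal growth, and IGFBP5 is known as a protein that increases as the gland regresses after lactation.

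The binding proteins share a cysteine-rich N-terminal domain. In most of them it holds the motif glycine-cysteine-glycine-cysteine-cysteine, then any 2 residues and a cysteine. The coding stretches of this motif are shown to mark which members hold it in full or in part, with the cysteine codons in capitals. They were read in the longest annotated coding sequence of each gene (GENCODE M21, GRCm38), and each lies in exon 1.
Igfbp2: ggcTGCggcTGCTGCtccgtgTGC
Igfbp3: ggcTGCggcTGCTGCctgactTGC
Igfbp4: ggcTGCggtTGTTGCgccactTGC
Igfbp5: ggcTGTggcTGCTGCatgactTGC
Igfbp7: TGCgggTGCTGCccggtgTGT
The stretches lie at chr1:72824778-72824801 on the plus strand (Igfbp2), chr11:7213566-7213589 on the minus strand (Igfbp3), chr11:99041650-99041673 on the plus strand (Igfbp4), chr1:72873966-72873989 on the minus strand (Igfbp5) and chr5:77407826-77407846 on the minus strand (Igfbp7). They start at codon 67, 68, 52, 51 and 57 of the coding sequence, in the same order. The motif was complete in 4 of the 6 binding proteins. In Igfbp7 the same run of cysteines lacked the first glycine, and the motif was not found in Igfbp6. Among all 21685 coding sequences searched, 18 held the full motif, or 0.0830%. On the same assembly Igfbp2 and Igfbp5 are neighbors on chromosome 1, on opposite strands and with their 3′ ends 5.46 kb apart.

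Both ligands had higher means in Lung mets wherever they had a mean, and the other genes varied in direction between the tables. Of 47 ratios over the 10 genes and 5 tables, 33 were above 1 and 14 below, whereas between 49.7% and 55.3% of all genes of a table had a ratio above 1. By table, 7 of 9 were above 1 in Her2, 9 of 10 in C3Tag, 7 of 9 in the table deposited under AKR, 5 of 9 in BALB and 5 of 10 in SEAGN. A 2-fold difference was reached by 12 of the ratios, 10 higher and 2 lower in Lung mets, and 35 lay within 2-fold. Without the table deposited under AKR, 26 of 38 were above 1 and 12 below, and 6 were 2-fold higher and 2 lower. Igf1 and Igf2 were higher in Lung met in every table with a mean, and no gene was lower in every table. Without the table deposited under AKR, 3 genes were higher in all tables with a mean, the addition being Igf2r with small differences. The plot of the levels gives both means of each gene in each table.

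In the Her2 model 9 of the 10 genes had a mean, and 1 was 2-fold higher (Igfbp2) and 1 was 2-fold lower (Igfbp4) in Lung mets. Of all genes there, 2.38% were 2-fold higher and 1.43% were 2-fold lower. In C3Tag 4 of 10 were 2-fold higher (Igf1, Igf2, Igfbp2 and Igfbp4) and 0 were lower, beside 7.42% and 1.70% of all genes. In the table deposited under AKR 4 of 9 were 2-fold higher (Igfbp2, Igfbp4, Igfbp6 and Igfbp7) and 0 lower, beside 7.31% and 1.73%. BALB had 1 of 9 higher (Igf2) and 0 lower, beside 2.26% and 2.40%, and in SEAGN 0 of 10 were higher and 1 was lower (Igfbp3), beside 2.86% and 3.22%. The median log2 ratio of the genes was 0.24 in Her2, 0.56 in C3Tag, 0.69 in the table deposited under AKR, 0.23 in BALB and -0.01 in SEAGN, whereas that of all genes lay between -0.0013 and 0.0298. With 9 or 10 genes and 1 mean a tissue, these shares are a description.

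**Figure D1:**
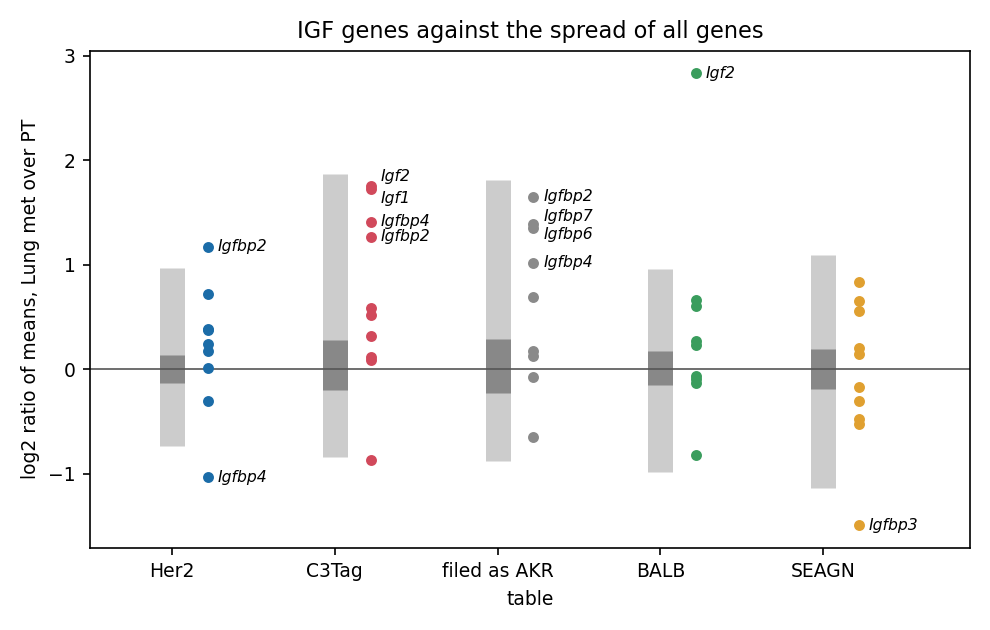
Log2 ratio of the Lung met mean over the PT mean on the vertical axis, for each table. Bars span the central 95% (light) and the central 50% (dark) of all genes of the table, points are the IGF genes, and those past 2-fold are named. Igf2 in BALB (2.83) stands far above the bar, and Igfbp3 in SEAGN (-1.49) and Igfbp4 in Her2 (-1.03) stand below it. Igfbp2 in Her2 (1.17) also stands above its bar, and Igfbp5 in C3Tag (-0.87) just below it.

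Igf1 (chr10:87858265-87937042, plus strand) encodes the main circulating and stromal growth ligand. Its mean was 612 in PT and 801 in Lung met in Her2, a ratio of 1.31. In C3Tag it was 360.0 in PT and 1184 in Lung met, a ratio of 3.29, the only table in which it passed 2-fold. The PyMT-F1 tables stood close together, and all 3 had the higher mean in Lung met. The means were 484 and 781 in the table deposited under AKR (ratio 1.61), 133 and 202 in BALB (1.52), and 184 and 290.2 in SEAGN (1.57). Between 88.5% and 96.9% of all genes of a table had a lower log2 ratio than Igf1, so it lay toward the upper end in each.

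Igf2 (chr7:142650766-142666816, minus strand), the fetal growth ligand, is imprinted and expressed from the paternal allele in most tissues. It had a mean in 3 tables and was low in all of them before the difference is considered. In C3Tag the mean was 23.4 in PT and 78.8 in Lung met, a ratio of 3.37. The largest ratio of any of the 10 genes was that of Igf2 in BALB, at 18.7 in PT and 133 in Lung met (7.12-fold, log2 2.83), and 99.8% of all genes in BALB had a lower one. In SEAGN the levels were 6.36 and 11.4, a ratio of 1.79. For Her2 and the table deposited under AKR, Igf2 was not analysed here. Which animals carried the BALB value cannot be seen from a mean.

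The receptors differed less than the ligands. Igf1r (chr7:67952827-68233668, plus strand), the signaling receptor, had means of 709 in PT and 804 in Lung met in Her2 (ratio 1.13), 3752 and 4683 in C3Tag (1.25), and 286 and 314 in the table deposited under AKR (1.10). In the other 2 tables the Lung met mean was the lower one, with 171 and 161 in BALB (0.940) and 199.7 and 139 in SEAGN (0.696, log2 -0.52). Igf1r thus stayed within 2-fold in 5 of 5 tables, and its log2 ratios spanned 0.84.

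Igf2r (chr17:12682406-12769664, minus strand), which clears IGF2, was the steadiest of the 10 genes. In Her2 the means were 14029.8 in PT and 14099 in Lung met, a ratio of 1.00. They were 5599 and 6068 in C3Tag (1.08), 6972 and 6659 in the table deposited under AKR (0.955), 3124 and 3655 in BALB (1.17), and 2824 and 3243 in SEAGN (1.15). Its log2 ratios spanned 0.29 over the 5 tables, beside 0.84 to 2.44 for the other genes. The antisense RNA Airn overlaps Igf2r in the annotation, Igf1os and Igf2os lie antisense to Igf1 and Igf2, Gm34648 and Polr2b lie on the other strand across Igfbp7, and Gm49394 shares the strand of Igf2. Whether the authors counted reads by strand was not given in the sources used here, so reads of such genes may not be separated.

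**Figure D2:**
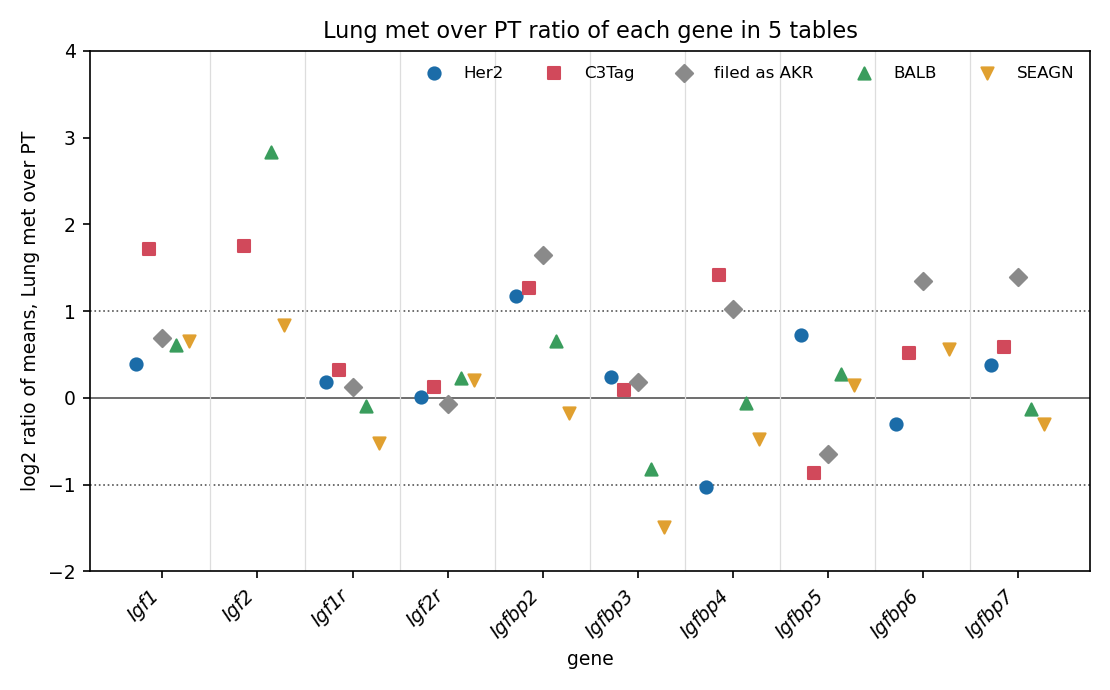
Log2 ratio of the Lung met mean over the PT mean (vertical axis) for each of the 10 genes, with 1 symbol per table and dotted lines at a 2-fold difference. Igf1 and Igf2 lie above 0 in all tables with a mean, Igf2r lies close to 0 in all 5, and Igfbp4 spreads widest, from -1.03 in Her2 to 1.41 in C3Tag.

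Among the binding proteins, Igfbp2 (chr1:72824503-72852474, plus strand) was the one gene that was past 2-fold in the same direction in 3 tables. IGFBP2 is a binding protein of fetal and tumor tissue that prefers IGF2 and can also bind integrins. The means were 244 in PT and 549 in Lung met in Her2 (ratio 2.25) and 581 and 1397 in C3Tag (2.40). They were 617 and 1938 in the table deposited under AKR (3.14). In BALB the Lung met mean was also higher, with 155 and 245 (1.58), but in SEAGN it was not, with 179 and 159 (0.888). Without the table deposited under AKR, 2 of 4 tables were past 2-fold and 3 of 4 had the higher Lung met mean.

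Igfbp3 (chr11:7206086-7213923, minus strand) encodes the main carrier of IGFs in the blood. It showed nearly equal means in 3 tables, at 2766 in PT and 3277 in Lung met in Her2 (1.18) and 3472 and 3688 in C3Tag (1.06). The table deposited under AKR was similar, with 2484 and 2819 (1.13). In BALB it was lower in Lung mets, with 960.3 in PT and 543 in Lung met (ratio 0.565, log2 -0.82), where 3.60% of all genes had a lower log2 ratio. The difference was greatest in SEAGN, with 1058 in PT and 377 in Lung met, a 2.81-fold lower mean (log2 -1.49), and there 1.40% of all genes had a lower one.

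Igfbp4 (chr11:99041244-99054392, plus strand), a binding protein that holds IGF1 back until the protease PAPP-A cuts it, had opposite directions in the driver models. In Her2 the mean was 2193 in PT and 1077 in Lung met, 2.04-fold lower in the metastases, and 1.36% of all genes had a lower log2 ratio. In C3Tag it was 1524 in PT and 4046 in Lung met, 2.65-fold higher. The table deposited under AKR stood with C3Tag, with 2233 and 4537 (2.03). BALB (704 and 676, ratio 0.959) and SEAGN (889 and 642, ratio 0.722) had slightly lower Lung met means. Its log2 ratios spanned 2.44, the widest range of the 10 genes, and the difference between the models was not tested because the tables hold no spread.

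Igfbp5 (chr1:72857932-72874884, minus strand) was the most abundant of the 10 genes per kilobase of exon in both tissues of all 5 tables. The means were 92136 in PT and 152093 in Lung met in Her2, a ratio of 1.65. Its direction was opposite in C3Tag, with 43889 and 24008 (0.547, log2 -0.87), and in the table deposited under AKR, with 253403 and 161254 (0.636, log2 -0.65). In BALB the means were 83257 and 100269 (1.20) and in SEAGN 97321 and 107718 (1.11). No table passed 2-fold, yet in C3Tag only 2.27% and in the table deposited under AKR 5.08% of all genes had a lower log2 ratio. In both of these tables Igfbp2, its neighbor on the chromosome, had the higher mean in Lung mets. In Her2 and BALB both genes were higher in Lung mets, and in SEAGN Igfbp5 was higher and Igfbp2 lower.

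Because Igfbp5 was so abundant, its share sets what the binding proteins amount to as a group. Per kilobase of exon, Igfbp5 made up 81.8% of the summed binding protein level in Her2 PT and 86.3% in Lung met. The share was 64.8% and 39.4% in C3Tag, and 92.9% and 79.1% in the table deposited under AKR. In BALB (94.0% and 95.7%, without Igfbp6) and SEAGN (93.9% and 96.3%) it was high in both tissues. C3Tag thus stood apart, with Igfbp7 at 3094 per kilobase in Lung met close behind Igfbp5 at 3997. The means of the other binding proteins, added up, had a Lung met over PT ratio of 1.05 in Her2, 1.59 in C3Tag, 1.97 in the table deposited under AKR, 0.824 in BALB and 0.606 in SEAGN.

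Igfbp6 (chr15:102144362-102149511, plus strand) encodes the binding protein with the strongest preference for IGF2. Its means were low, at 72.7 in PT and 59.1 in Lung met in Her2 (0.814) and 155 and 224 in C3Tag (1.44). In the table deposited under AKR they were 72.4 and 185 (2.56) and in SEAGN 15.2 and 22.4 (1.47), and for BALB it was not analysed here. Only the table of unsettled strain passed 2-fold. Igfbp7 (chr5:77349240-77408041, minus strand), the vessel and stroma protein, had means of 2218 and 2879 in Her2 (1.30) and 2484 and 3741 in C3Tag (1.51). It passed 2-fold in the table deposited under AKR, with 1838 and 4799 (2.61). In BALB (396 and 362, ratio 0.915) and SEAGN (481 and 389, ratio 0.810) the Lung met mean was the lower one.

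By direction alone, a split thus ran between the tables for 3 of the genes, which were picked after their values were seen. Igf1r, Igfbp3 and Igfbp7 had the higher Lung met mean in Her2, C3Tag and the table deposited under AKR, and the lower one in BALB and SEAGN. Several of these ratios were near 1, such as 1.06 for Igfbp3 in C3Tag and 0.940 for Igf1r in BALB, and their spread is unknown. The BALB and SEAGN tables carry gene identifiers of a BALB/cJ annotation and the other 3 those of the reference mouse, so strain and annotation cannot be told apart here. Without the table deposited under AKR the split is of 2 tables against 2, Her2 and C3Tag against BALB and SEAGN. These sides also differ in oncogene, in FVB or F1 background, and in whether the PTs were removed by surgery. Such differences cannot be told apart here either.

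Per kilobase of exon the order of the genes within a tissue was much alike in the tables. In Her2 PT, Igfbp5 (15341) was followed by Igfbp7 (1834), Igf2r (1507), Igfbp3 (884), Igfbp4 (497) and Igfbp2 (132). Below them came Igfbp6 (65.3), Igf1 (61.8) and Igf1r (42.2). In C3Tag PT the order was Igfbp5 (7308), Igfbp7 (2054), Igfbp3 (1109), Igf2r (601), Igfbp4 (345), Igfbp2 (315), Igf1r (223), Igfbp6 (139.8), Igf1 (36.4) and Igf2 (4.08). Igf1r stood above Igf1 in both C3Tag tissues, and below it in both tissues of the other tables. Igf2 came last in both tissues of C3Tag and SEAGN and in BALB PT, but in BALB Lung met it stood at 23.3 per kilobase, above Igf1 (20.4) and Igf1r (9.57). With 1 mean a tissue, it cannot be said which neighbors in these orders differ beyond their spread.

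The wider IGF axis was described by fixed lists, of which 0 of 13 genes of the PI3K, AKT and FOXO pathway downstream of the receptor passed 2-fold in any table. Of all genes of a table, 1.43% to 7.42% were past 2-fold in a given direction, so 0 of 13 in this list is near that share. The median log2 ratio of that list was 0.03 in Her2, 0.13 in C3Tag, -0.17 in the table deposited under AKR, 0.09 in BALB and 0.11 in SEAGN. Its members with the largest differences were Pik3r1, the regulatory subunit of PI3K (11795 in PT and 15851 in Lung met in Her2, 7039 and 4555 in C3Tag), Pdk1 (537 and 727 in BALB) and Foxo3, a transcription factor that AKT keeps out of the nucleus (2497 and 2914 in SEAGN). In the mouse the symbol Pdk1 stands for a pyruvate dehydrogenase kinase and not for the PI3K-dependent kinase Pdpk1, which the list does not hold. The insulin receptor Insr, which pairs with IGF1R in hybrid receptors, had ratios between 0.833 and 1.08, while Insrr, Ins1, Ins2 and Igflr1 were not analysed here.

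Of the adaptors that dock to the receptors, with the growth hormone receptor Ghr, 6 of 7 had means and 2 passed 2-fold. Both were higher in C3Tag Lung mets, where 7.42% of all genes were 2-fold higher. The 2 were Grb14, an inhibitor of receptor signaling, at 109 in PT and 234 in Lung met, and Shc1, at 2741 and 5483. Irs1, the main docking protein, had means of 1443 and 2426 in BALB and 1599 and 1157 in the table deposited under AKR, and Irs2 of 573 and 881 in BALB. Igfals, which joins IGF and IGFBP3 in the long-lived serum complex, was past 2-fold in C3Tag only, with 78.0 in PT and 25.9 in Lung met (3.01-fold lower). Its means were 4740.3 and 5595 in Her2, 495 and 303 in the table deposited under AKR, 125 and 132 in BALB, and 171 and 90.3 in SEAGN. Igfbp1, Igfbpl1 and Irs4 were not analysed here.

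The proteases that cut binding proteins, and their inhibitors, differed more between the models. Pappa encodes PAPP-A, the protease of IGFBP4, and was 2-fold higher in Lung mets in Her2, with 16.8 and 41.2, and in the table deposited under AKR, with 40.3 and 129, which leaves Her2 alone when that table is set aside. Its means were 51.7 and 82.3 in BALB, 387 and 373 in C3Tag and 41.0 and 39.0 in SEAGN. Stc2, which encodes stanniocalcin-2, an inhibitor of PAPP-A, was 3.92-fold lower in C3Tag Lung mets (670.3 in PT and 171 in Lung met) and 2.46-fold lower in the table deposited under AKR (574 and 234). The Stc2 means of Her2 were 287 and 429.9, those of BALB 194 and 209.8, and those of SEAGN 183 and 105. Pappa2 was low and had means in 2 tables, at 7.39 and 35.9 in C3Tag and 5.69 and 5.57 in the table deposited under AKR. Htra1, a secreted serine protease, was past 2-fold higher in C3Tag (539 and 1403) and past 2-fold lower in SEAGN (49.4 and 23.1), and was described after its values were seen.

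Among the IGF2 mRNA-binding proteins, which bind Igf2 and other transcripts and are best known from the fetus, Igf2bp2 was 2-fold higher in Lung mets in 3 tables. The means were 6.93 in PT and 18.3 in Lung met in Her2, 16.1 and 83.3 in the table deposited under AKR, and 12.8 and 27.7 in BALB. Without the table deposited under AKR that is 2 of 4 tables. In SEAGN they were 9.67 and 14.3, and in C3Tag they were 833 and 985. Igf2bp3 did not pass 2-fold in any table (77.9 and 72.0 in C3Tag), and Igf2bp1 was not analysed here.

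Of 7 imprinted genes that are expressed together with Igf2 in the growing fetus, 6 or 7 had means in a table. In C3Tag 3 of 7 were 2-fold higher, beside 7.42% of all genes. In Her2 2 of 6 were 2-fold lower (all genes 1.43%), and in the table deposited under AKR 1 of 6 was lower (1.73%). BALB had 1 of 6 higher (2.26%) and 1 lower (2.40%), and SEAGN 1 of 6 higher (2.86%) and 1 lower (3.22%). With so few genes these counts are a description. H19, the maternally expressed RNA 72.6 kb from Igf2, was 9.05-fold lower in Her2 Lung mets, with 444 in PT and 49.0 in Lung met. In BALB, where Igf2 had its largest ratio, H19 was also higher in Lung mets, with 716 and 1583. Its means were 1115 and 1264 in C3Tag and 444 and 646 in SEAGN. Meg3, the maternally expressed RNA of another imprinted cluster, was lower in Lung mets in 4 tables, with 224 and 33.0 in Her2, 169 and 48.1 in the table deposited under AKR, 154 and 40.9 in BALB, and 185 and 26.8 in SEAGN. Without the table deposited under AKR it was lower in 3 of 4. C3Tag went the other way, with 529 in PT and 5933 in Lung met. Dlk1, the paternally expressed partner of Meg3 in that cluster, had a mean of 21.6 in C3Tag PT and 3687 in Lung met, 171-fold higher, and 5.37 and 7.59 in the table deposited under AKR. Of the remaining genes of this list, Cdkn1c in C3Tag (178 and 441) and Peg3 in SEAGN (1076 and 2841) were 2-fold higher in Lung mets, and Plagl1 and Mest stayed within 2-fold.

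**Figure D3:**
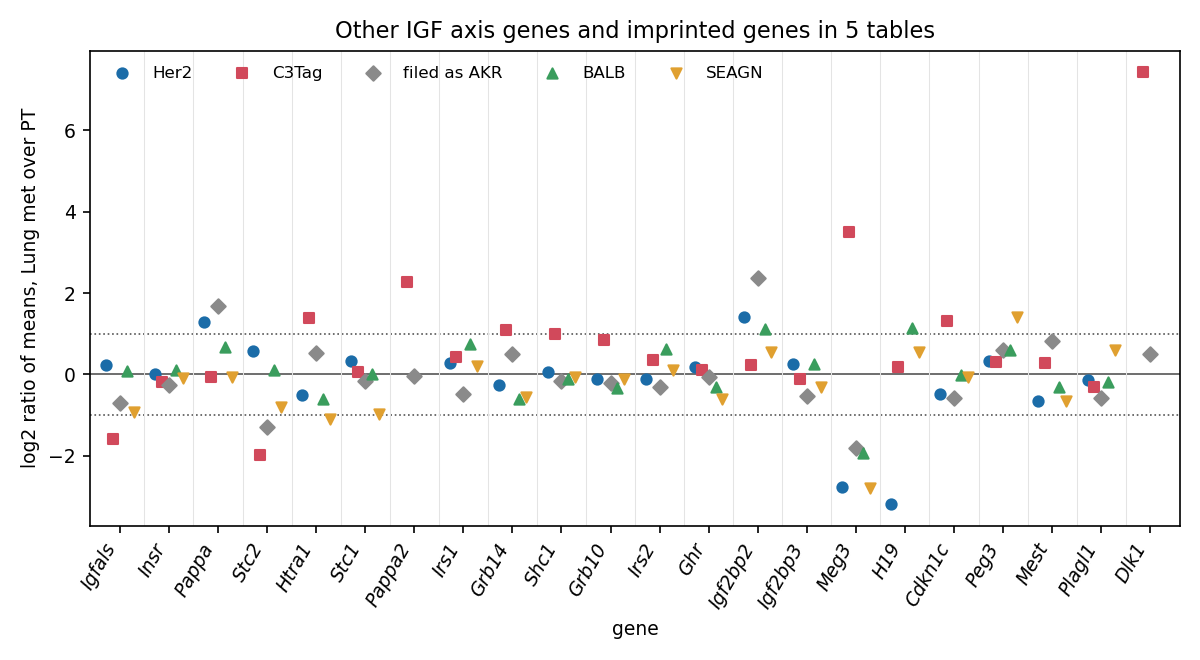
Log2 ratio of the Lung met mean over the PT mean (vertical axis) for the other genes of the IGF axis outside the PI3K pathway and for the imprinted genes, with 1 symbol per table and dotted lines at a 2-fold difference. Meg3 lies below -1 in 4 tables and at 3.49 in C3Tag, and Dlk1 reaches 7.42 in C3Tag.

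The tissue of each group was checked against marker lists. The summed mean of the luminal genes had Lung met over PT ratios from 0.990 to 1.13, but the sum rests on a few abundant genes. Of its members only Krt19, a luminal keratin, passed 2-fold, with 72.3 in PT and 1014 in Lung met in Her2 and 1369.5 and 3215 in BALB. Most markers of lung epithelium had higher means in Lung met, among them Ager, of alveolar type 1 cells, at 16.5 to 44.5 times and Lamp3, of type 2 cells, at 24.5 to 229.7 times the PT mean. The abundant Aqp5 did not in Her2 (ratio 0.914) and BALB (0.633), nor did Abca3 in Her2 (0.986) and the table deposited under AKR (0.867). In C3Tag 5 of 5 type 2 markers and 7 of 7 type 1 markers were 2-fold higher, elsewhere 4 of 5 and 4 to 6 of 7, and none was 2-fold lower. Sftpc, Sftpb and Sftpa1 were not analysed here. The type 2 sums had ratios of 1.54 in Her2, 20.6 in C3Tag, 4.46 in the table deposited under AKR, 2.41 in BALB and 3.78 in SEAGN, and the type 1 sums of 0.985, 4.33, 2.17, 0.886 and 2.22.

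Stromal markers differed between the tissues as well. Endothelial genes were 2-fold higher in Lung mets for 3 of 8 in Her2, 6 of 8 in C3Tag, 7 of 8 in the table deposited under AKR, and 2 of 8 in both BALB and SEAGN. Their summed means had ratios of 1.67, 2.94, 3.52, 1.59 and 1.72 in that order, beside ratios of 1.30, 1.51, 2.61, 0.915 and 0.810 for Igfbp7. Fibroblast genes were 2-fold lower for 8 of 9 in Her2, 7 of 9 in the table deposited under AKR and in BALB, and 7 of 8 in SEAGN, with sums at 0.435, 0.396, 0.312 and 0.195 of the PT level. In C3Tag 2 of 9 were lower and 1 higher, with a sum at 0.916. The sums rest largely on the collagen genes Col1a1, Col1a2 and Col3a1. Pdgfra, of the same list, had the higher mean in Lung met in every table. Its ratios were 1.44 in Her2, 1.74 in C3Tag, 1.92 in the table deposited under AKR, 1.46 in BALB and 1.36 in SEAGN. Dpt was higher in C3Tag (2.43) and in the table deposited under AKR (1.26). The Igf1 ratios stood at 1.31 in Her2, 3.29 in C3Tag, 1.61 in the table deposited under AKR, 1.52 in BALB and 1.57 in SEAGN. In bulk tissue, fewer cells of a type and less RNA per cell cannot be told apart, and the part of lung, vessel and stroma cells in the differences of the IGF genes was not tested.

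The other marker lists are given by their summed means. Smooth muscle and pericyte genes had ratios from 0.814 in BALB to 1.61 in the table deposited under AKR. In that table and in SEAGN only 5 of 8 had means, without Acta2, Myh11 and Cnn1. Des had ratios of 8.65 in the table deposited under AKR and 0.318 in BALB. Macrophage genes had ratios from 0.777 in Her2 to 1.51 in the table deposited under AKR. The Her2 sum joins Mrc1 (ratio 0.320) and Itgax (2.13), which went opposite ways. Marco was not analysed here, nor was Itgax in BALB and SEAGN. The adipocyte sum, over the 2 or 3 of 7 genes with means, was lower in all 5 tables, from 0.388 in SEAGN to 0.795 in C3Tag. Pparg, 1 of these genes, went the other way in all 5, with ratios from 1.06 in Her2 to 3.73 in C3Tag. Adipoq, Plin1, Cidec and Lep, which define the cell type, were not analysed here. Myoepithelial genes had ratios from 0.416 in C3Tag to 1.90 in BALB. Skeletal muscle genes, of which 1 to 3 of 6 had means, were at 0.0173 to 0.105 of the PT level, save in the table deposited under AKR at 2.36. T cell genes had ratios from 0.848 to 1.84. B cell genes had means in 2 tables only, with ratios of 2.63 in C3Tag and 7.57 in the table deposited under AKR.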

How the data were processed

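RNA of PT and Lung met tissue was sequenced on an Illumina platform by the authors, who aligned and normalized the reads in Partek Flow (STAR 2.7.8a and DESeq2 are in the submitters' processing notes). Library preparation and the genome build are described differently by different sources and were not settled. The values used are the deposited least-squares means of normalized counts per group, a signal for which neither SD nor n is given. Columns of the authors' own comparisons (p-values, FDR, ratios and fold changes) were not used. As the Myc table holds no means, only the presence of the 10 genes in it was read. The fold changes in a supplementary table were read once, to ask which cross the table deposited under AKR matches, and the comparison was made within 0.006. Strains were taken from the sample names, because other labels of the PyMT-F1 samples conflict with these.

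The log2 ratio was computed over all genes of a table as log2(Lung met mean / PT mean), with no pseudocount. A gene was counted as past 2-fold at a log2 ratio of 1 or more, or of -1 or less. Gene positions, exon lengths and coding sequences are from GENCODE M21 (GRCm38), and levels per kilobase used the length of all exons of a gene merged. Lists were the IGF axis (binding proteins and carriers, insulin receptor family, proteases and inhibitors, adaptors and growth hormone receptor, IGF2 mRNA-binding proteins, PI3K, AKT and FOXO), imprinted genes, and markers of 12 cell types. The text names all 10 genes, the 3 genes of each IGF axis and imprinted list with the largest median absolute log2 ratio, every gene of these lists past 2-fold the same way in 3 or more tables, and, for genes of the 10 that did so, the 3 nearest genes. Others named from these lists were singled out after their values were seen. The 10 genes and the lists were chosen with earlier results of these data known. Python 3.11.15, numpy 2.4.6, pandas 2.3.3 and matplotlib 3.10.9 were used, and the scripts were tested on simulated data. Alternatives were a pseudocount of 1, centring at the median of genes with a mean of 10 or more, a filter at 10, and a 1.5-fold threshold. Depth per sample is unknown, so no interval was computed.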

Additional observations from a re-analysis of the deposited data

How the results depend on the processing

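All 47 log2 ratios of the 10 genes moved by less than 0.1, and no 2-fold count changed, with a pseudocount of 1 or with centring at the table's median. The filter at a mean of 10 changed neither the 2-fold counts nor the medians of the genes. At a 1.5-fold threshold the count of genes higher in Lung mets went from 1 to 2 in Her2, 4 to 5 in C3Tag, 4 to 5 in the table deposited under AKR, 1 to 3 in BALB and 0 to 2 in SEAGN. The count lower went from 0 to 1 in C3Tag, the table deposited under AKR and BALB, and was 1 in Her2 and SEAGN as before. An alternative chosen after seeing the data, leaving out the table deposited under AKR, gave 3 genes higher in every table with a mean instead of 2, and 0 lower in both cases. It left 6 instead of 10 ratios 2-fold higher, of 38 instead of 47, and 2 lower as before. No paired analysis was possible because the tables hold group means and no value of a sample. For the same reason the precision of each ratio is unknown.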

Other observations

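Igfbp2 was the only one of the 10 IGF genes past 2-fold in the same direction in 3 tables, and the genes whose ratios were most like its own were sought among 11920 genes with a mean of 10 or more in each of the 5 tables. Likeness was the Euclidean distance between log2 ratios over the 5 tables. The nearest was Fn1, which encodes fibronectin, at a distance of 0.657, with log2 ratios of 1.02 in Her2, 1.17 in C3Tag, 1.58 in the table deposited under AKR, 0.99 in BALB and 0.36 in SEAGN. Next came Adamtsl3 at 0.697 (0.69, 0.94, 1.30, 0.83 and -0.16 in the same order) and Cnn2, an actin-binding calponin, at 0.702 (0.71, 1.07, 1.52, 0.21 and 0.00). These are descriptions over 5 pairs of means, of which 1 is of unsettled strain. Without that table Igfbp2 was past 2-fold in 2 of 4 tables, and the search would not have been made.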
